A study of Mus musculus with 12 samples.

Results

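The receptors for sphingosine-1-phosphate (S1P) and lysophosphatidic acid (LPA) described here are the products of 10 genes, S1pr1 to S1pr4 and Lpar1 to Lpar6. N6-methyladenosine (m6A), a methyl mark on adenosines of RNA, was mapped in mouse lung by sequencing the RNA that an m6A antibody captured (IP) beside RNA from before the capture (input). The OVA group, a model of allergic asthma, was female BALB/c mice of 6 to 8 weeks sensitised on days 0 and 7 with ovalbumin in aluminum hydroxide. They then breathed 3% ovalbumin aerosol for 30 min a day from day 14 to day 20. The PBS group was female BALB/c mice of the same age given phosphate-buffered saline alone, with neither ovalbumin nor aluminum hydroxide. By the study's methods, lungs of both groups were taken on day 21 after a test of the airways with nebulised methacholine under anesthesia. Each group had 3 IP and 3 input libraries, and each was analysed as 1 deposited list of m6A peaks that pools its 3 mice. A peak counted for a receptor when it had been called on the receptor's gene or when the annotation had assigned it to that gene. This gave 23 receptor peaks of 27292 in the OVA list and 23 of 26102 in the PBS list.

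S1P and LPA are small lipids that act outside the cell through G protein-coupled receptors, each of which passes the signal to its own set of G proteins. S1P made by red blood cells and endothelium holds the vessel wall tight and draws lymphocytes out of lymphoid organs, and LPA made by autotaxin drives the growth and movement of fibroblasts and epithelium. In the lung, both lipids are known for their part in vascular leak, smooth muscle contraction and the traffic of leukocytes.

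Each peak carried a fold enrichment, the ratio of IP to input within it, and the log10 of its p value, which lies further below 0 for a stronger call. Where 1 position is given for a pair, it is that of the OVA peak. With 1 pooled list per group there was no spread between mice to set a difference against, so the values below are descriptions of these lists with no test. The read counts behind a peak were not analysed here, and the depth of each value is unknown. A fold enrichment is not an expression level, and the number of copies of a receptor's RNA cannot be read from it.

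Markers of lung cell types were looked up in the lists as a check of the tissue. Of 25 markers, 19 had a peak in both lists, or 76.0%, where 51.0% of the 21900 protein-coding RefSeq genes did. They included 4 of 4 for endothelium, 3 of 3 for alveolar type 1 cells and 4 of 5 for alveolar type 2 cells. Leukocytes had 3 of 6, close to the share of all genes, smooth muscle and fibroblasts 3 of 4, and club and ciliated cells 2 of 3. Those without a peak in either list included Sftpc, Scgb3a2, Acta2, Marco and Siglecf. None of 4 genes of liver, pancreas, neurons and kidney (Alb, Ins2, Neurod1 and Umod) had one.

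All 10 receptor genes had a peak called on them in both lists, and 51.0% of the protein-coding genes had one called on or assigned to them. The latter share is over all such genes, whether or not lung expresses them. The 10 receptors were chosen with earlier results of these data known, so the difference is a description only. No receptor had a peak in 1 list alone, against 10.3% of the 17639 genes with a peak for the OVA list and 6.96% for the PBS list. The median fold enrichment of the receptor peaks was 11.1 in the OVA list, where all peaks had a median of 5.59, and 9.87 in the PBS list, where all peaks had 5.44. As percentiles of their own list, the receptor peaks ran from 7.22 to 95.3 in OVA with a median of 73.8, and from 5.52 to 97.6 in PBS with a median of 71.2. The family thus spread over nearly the whole range of enrichment, with 18 of 23 OVA peaks and 17 of 23 PBS peaks above the median of their list.

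The S1P and LPA receptors differed more in the strength of their calls than in enrichment. The peaks called on the 4 S1P receptor genes had a median fold enrichment of 11.3 in OVA and 12.1 in PBS, and those on the 6 LPA receptor genes 10.4 and 9.62. The median log10 p was -492 and -620 for the S1P receptors but -42.6 and -21.9 for the LPA receptors. Most receptor peaks were annotated to a 3′ UTR. In the OVA list 15 were in a 3′ UTR, 5 to a 5′ UTR and 3 to another exon, and in the PBS list 14, 4 and 5. Among all peaks these shares were 52.7%, 11.6% and 35.7% in OVA and 52.7%, 11.4% and 35.9% in PBS. Of the peaks called on a receptor, 10 of 21 in OVA and 11 of 22 in PBS were assigned by the annotation to another gene, as were 22.5% of all OVA peaks and 22.8% of all PBS peaks. The region was a separate label, and the exon labels of receptor peaks, 3 in OVA and 5 in PBS, each named the gene of the call.

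The positions were nearly the same in the groups. The peaks called on the 10 receptor genes, without those only assigned to them, covered 14581 bases in OVA and 14704 in PBS. The 13684 shared bases made up 93.8% of the first and 93.1% of the second, and no such share is given here for all peaks. In OVA 2 of 23 receptor peaks overlapped no PBS peak, as did 19.4% of all OVA peaks, and in PBS 2 of 23 overlapped no OVA peak, as did 14.5% of all PBS peaks. The overlapping peaks formed 21 receptor pairs, of which 4 had identical start and end in both lists.

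Across all 20532 pairs of overlapping peaks, the median ratio of OVA to PBS fold enrichment was 1.10, a shift of 0.13 on the log2 scale. Among the receptor pairs the median was 1.06, with 9 above and 12 below the median of all pairs. No receptor pair was at least 2-fold higher in OVA, against 7.77% of all pairs, and 4 of 21 were at least 2-fold lower, against 4.93%. The remaining 17 pairs lay within 1.5-fold, while of all pairs 10.4% were at least 1.5-fold lower and 18.7% at least 1.5-fold higher. With ratios divided by the median of all pairs, 4 receptor pairs were lower and 0 higher, against 6.09% and 6.11% of all pairs. The 4 lower pairs included that called on Gna15, a gene next to S1pr4. Of the 19 pairs called on a receptor, 3 were at least 2-fold lower.

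**Figure D1:**
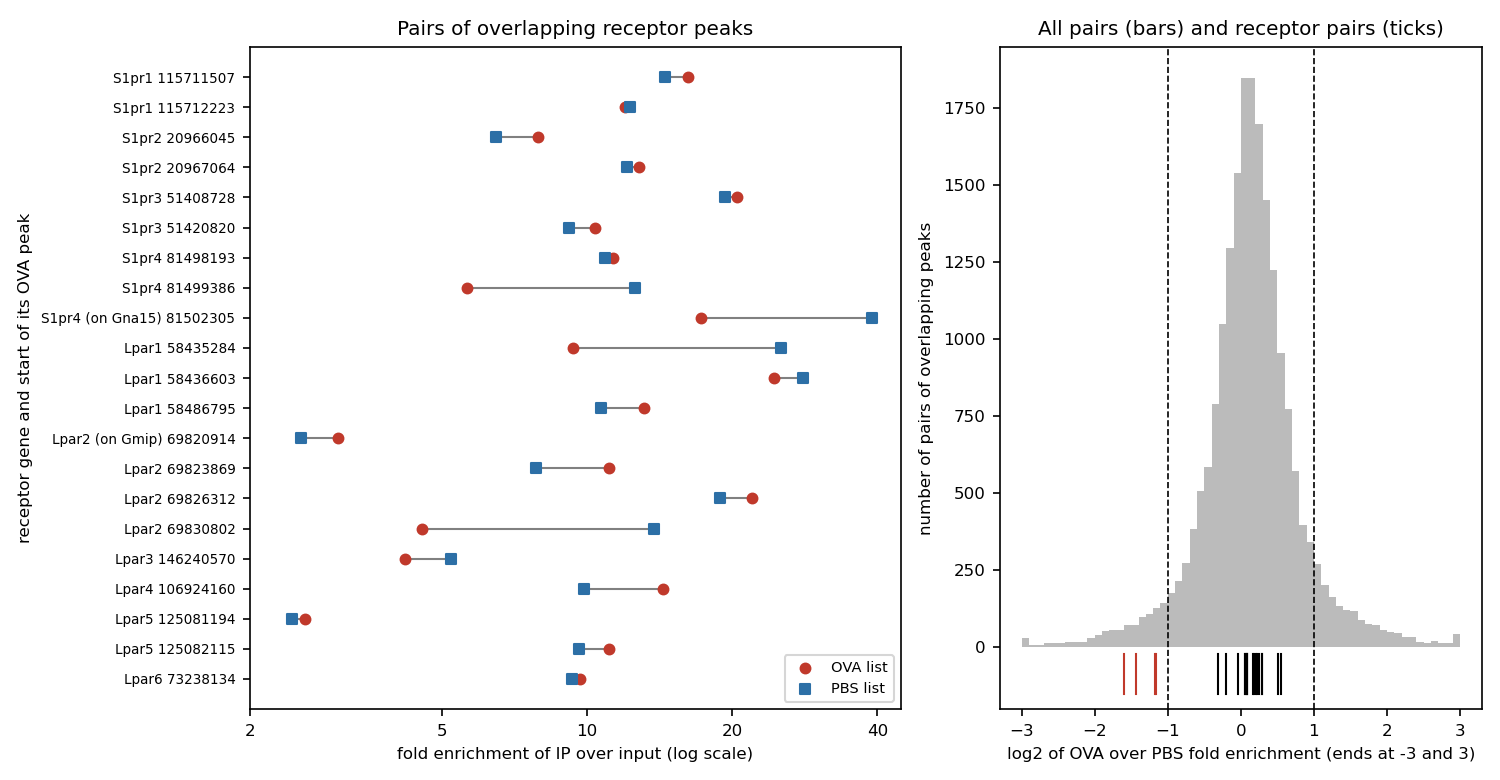
Left, fold enrichment of IP over input (log axis) for the 21 pairs of overlapping receptor peaks, 1 row per pair, with OVA as circles and PBS as squares. Right, the log2 ratio of OVA to PBS fold enrichment for all 20532 pairs (bars, number of pairs; values beyond -3 or 3 are in the end bars) and the receptor pairs (ticks below), with dashed lines at 2-fold. The 4 red ticks are the pairs at least 2-fold lower in OVA, and no tick lies beyond 2-fold on the higher side.

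S1pr1, the receptor that keeps endothelium sealed and guides lymphocytes out of lymph nodes, held the strongest single call of the family in each list. On the minus strand of chromosome 3 (build GRCm38), its 3′ UTR peak at 115711507 to 115712135 had a fold enrichment of 16.2 in OVA and 14.5 in PBS. A second peak joined the start of the transcript to the next exon, from 115712223 to 115714923 in OVA, with 12 in OVA and 12.3 in PBS. The PBS list split off the end of this region as a peak of its own, 115712223 to 115712373, with a fold enrichment of 1.71. That weak piece lay inside the longer OVA peak, so the gene had 3 peaks in PBS and 2 in OVA over nearly the same bases.

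S1pr2, which restrains cell migration, had 2 peaks in each list on the minus strand of chromosome 9. The one nearest the 3′ end, 20966045 to 20966646 in OVA, had 7.91 against 6.46 in PBS, and was assigned to the neighbouring Dnmt1 although it lay within S1pr2. The larger one, 20967064 to 20968503 in OVA, had 12.8 against 12.1. In PBS it also took in a short block upstream and reached 20973904. Both peaks of S1pr2 were thus at similar enrichment in the groups, with ratios of 1.22 and 1.06.

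S1pr3, a receptor of smooth muscle and endothelium that raises calcium, had the same peaks to the base in both lists. The first, 51408728 to 51420282 on the plus strand of chromosome 13, joined the start of the gene to a distant exon and had 20.5 in OVA and 19.3 in PBS. The second, 51420820 to 51422108, had 10.4 and 9.19. With 3149 bases under peaks in each list, S1pr3 was the most widely covered of the 10 genes.

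S1pr4, the S1P receptor of lymphoid and myeloid cells, held both a steady and a lower peak. On the minus strand of chromosome 10, its 3′ UTR peak at 81498193 to 81498880 had 11.3 in OVA and 10.9 in PBS. Its 5′ UTR peak at 81499386 to 81499923 had 5.65 in OVA and 12.6 in PBS, a ratio of 0.448 (0.409 relative to the median of all pairs), and 3.86% of all pairs had a lower ratio. The log10 p of this pair differed little, at -21.9 in OVA and -19.3 in PBS. A further OVA peak of 61 bases at 81497776 to 81497836, close to the 3′ end, had 1.83 and no PBS partner. The next gene upstream, Gna15, a G protein subunit of blood cells, had a peak that the OVA annotation assigned to S1pr4. That peak, 81502305 to 81503077, lay outside S1pr4 and had 17.2. Its PBS partner ran from 81502305 to 81507928, was assigned to Gm25595 and had 39.0, a ratio of 0.441 (relative, 0.402). The log10 p went the other way, at -462 in OVA and -121 in PBS.

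**Figure D2:**
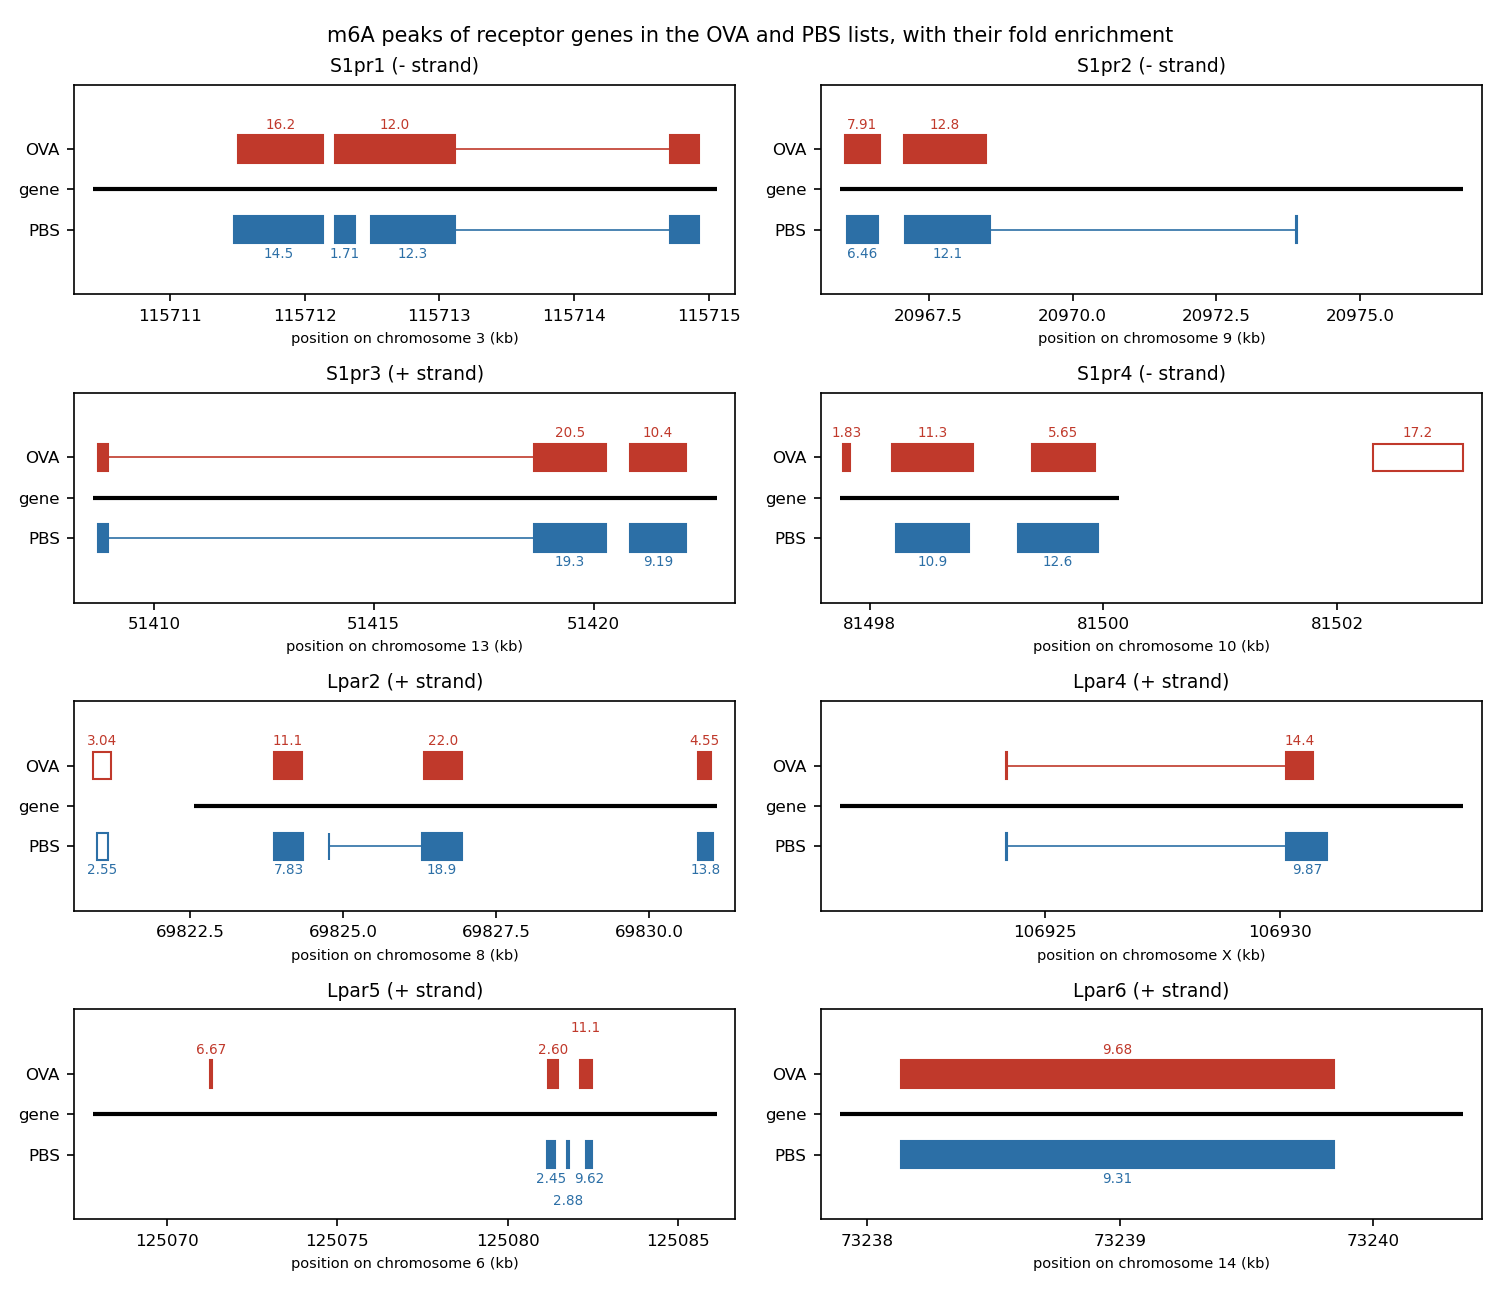
Receptor peaks on 8 of the 10 genes (Lpar1 and Lpar3 span too much to be drawn), with position in kb on the horizontal axis, the RefSeq position of the gene in black, OVA peaks in red above and PBS peaks in blue below. Filled boxes are blocks of peaks called on the receptor, thin lines join blocks of 1 peak, open boxes are peaks called on Gna15 or Gmip, and numbers are fold enrichments. The PBS peak of Gna15 was assigned to another gene and is not drawn. S1pr3 and Lpar6 have identical outlines in both lists, and the S1pr4 peak of 5.65 in OVA faces 12.6 in PBS.

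Lpar1, the LPA receptor through which fibroblasts are drawn into injured lung, carried the highest fold enrichment among the peaks called on a receptor in each list. On the minus strand of chromosome 4, the peak at 58436603 to 58437444 had 24.4 in OVA and 28.0 in PBS. The peak nearest the 3′ end, 58435284 to 58435705, had 9.33 in OVA and 25.2 in PBS, a ratio of 0.370 (relative, 0.337) that 2.42% of all pairs fell below. It began 32 bases from the end of the gene, while the peak of 24.4 and 28.0 lay further upstream. Another peak, labelled as exon 2 of 3 of an Lpar1 transcript though assigned to Gm12577, lay at 58486795 to 58487186 and went the other way with 13.1 in OVA and 10.7 in PBS. So within 1 gene the ratios ran from 0.370 to 1.22.

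Lpar2, a receptor of epithelium and leukocytes, lies on the plus strand of chromosome 8. Its peaks at 69823869 to 69824319 and 69826312 to 69826941 had 11.1 and 22 in OVA and 7.83 and 18.9 in PBS. Its last peak, 69830802 to 69831012, lay within Lpar2 but was assigned to Pbx4 in both lists, and had 4.55 in OVA and 13.8 in PBS. That ratio of 0.330 (relative, 0.30) was the lowest of the receptor pairs, but the calls behind it were weak, with a log10 p of -5.33 and -3.86. A further peak assigned to Lpar2, at 69820914 to 69821213, had been called on the adjoining gene Gmip and lay before Lpar2 began, with 3.04 and 2.55.

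Lpar3, known for its role in the implantation of embryos, was the most weakly enriched receptor by its highest peak in either list. Its peak in exon 2 of 3, at 146240570 to 146240986 on the plus strand of chromosome 3, had 4.19 in OVA and 5.22 in PBS. A 3′ UTR peak of 239 bases at 146285473 to 146285711 was in the PBS list alone, with 2.78. Lpar4, an LPA receptor of developing vessels, had 1 peak, 106924160 to 106930707 on chromosome X in OVA, with 14.4 against 9.87. Its ratio of 1.46 was the highest of the receptor pairs, at a log10 p of only -12.3 in OVA and -9.51 in PBS. The OVA peak covered 599 bases and the PBS peak 898.

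Lpar5, found on lymphocytes and mast cells, had the smallest share of its OVA peak bases in common with PBS. Its peaks covered 690 bases in OVA and 451 in PBS, and the 361 shared bases were 52.3% and 80.0% of these. On the plus strand of chromosome 6, the OVA peak at 125082115 to 125082472 had 11.1, and its PBS partner, at 125082293 to 125082472, had 9.62. The peak at 125081194 to 125081463 had 2.60 and 2.45. Between them the PBS list held a peak of 61 bases at 125081729 to 125081789, with 2.88 and a log10 p of -2.16. Lpar6, a receptor needed for hair growth whose gene lies within Rb1, had 1 peak of 1712 bases at 73238134 to 73239845 on chromosome 14 in both lists, with 9.68 and 9.31. A peak called on Rb1 overlapped it in both lists, with 4.15 and 3.65. Whether peak calling used strand was not given in the sources used here, so reads of Lpar6 and Rb1 there may be shared.

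The 4 lower pairs were not the strongest calls. All pairs were ordered by the weaker log10 p of their members and put into 4 groups of like size, a split chosen after the values were seen. In the strongest group, with a log10 p of -133 or further below 0, all 9 receptor pairs had ratios between 0.871 and 1.22. These were both pairs of S1pr1, S1pr2 and S1pr3, the S1pr4 3′ UTR pair, the middle Lpar1 pair and Lpar6. The lower pairs of Lpar1 and Gna15 were in the next group, that of the S1pr4 5′ UTR in the one after, and that of Lpar2 in the weakest. Among all pairs, at least 2-fold lower ratios made up 0.642%, 2.63%, 5.23% and 11.2% from the strongest group to the weakest, and at least 2-fold higher ones 1.34%, 5.2%, 8.92% and 15.6%. The receptor pairs at least 2-fold lower were 0 of 9, 2 of 4, 1 of 6 and 1 of 2 in the same order.

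S1pr1 differed between the groups in its log10 p and not in its fold enrichment, a comparison also chosen after the values were seen. The log10 p was -1350 in OVA and -2540 in PBS for the 3′ UTR peak, and -2670 and -4860 for the peak at the start of the transcript. These made OVA to PBS ratios of 0.531 and 0.549, where the median of 20480 pairs was 1.14 and 9.63% and 10.6% of pairs lay lower. A log10 p depends on the reads in a peak as well as on its enrichment. The 4 endothelial markers had the same direction in their strongest OVA pairs, with log10 p of -2060 and -3410 for Cdh5, -2850 and -6040 for Kdr, -285 and -724 for Tek and -216 and -274 for Pecam1. Their ratios of log10 p ran from 0.394 to 0.788, and their ratios of fold enrichment from 0.903 to 1.17. Of the other cell types, ratios of log10 p were above the median of all pairs for 3 of 3 leukocyte markers, at 1.23 for Cd3e, 3.02 for Ptprc and 18.6 for Itgax, and for 3 of 4 alveolar type 2 markers. They were below it for 2 of 3 alveolar type 1, 2 of 2 club and ciliated and 2 of 3 smooth muscle and fibroblast markers. The part of cell numbers in the S1pr1 values was not tested, and in whole lung fewer cells of a type and less RNA per cell cannot be told apart.

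Lpar3 and Lpar5 had the most uneven log10 p of the LPA receptors. For the Lpar3 exon peak it was -13.0 in OVA and -58.5 in PBS, a ratio of 0.222 that 0.884% of pairs lay below, while the fold enrichment differed by less than 1.5-fold. For the Lpar5 pair at 125082115 it was -60.6 and -13.6, a ratio of 4.46 with 95.6% of pairs below it, but the OVA peak covered 358 bases and the PBS peak 180. S1pr2, S1pr3 and Lpar6 showed no such gap, with -492 and -620 for the larger S1pr2 peak, -1460 and -1260 for the first S1pr3 peak and -634 and -561 for Lpar6. Over the receptor pairs the median ratio of log10 p was 1.13, and 11 of 21 were below the median of all pairs.

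Of the 4 receptor peaks without a partner, 3 were among the narrowest in the lists, at 62 bases or fewer. Such narrow peaks made up 5.69% of all OVA peaks, and 65.6% of them had no PBS partner. In PBS they made up 5.82%, and 55.1% had no OVA partner. The narrow receptor peaks were the S1pr4 peak of 61 bases and an Lpar5 peak of 62 bases in OVA, and the Lpar5 peak of 61 bases in PBS. Their false discovery rates were 0.0141, 0.0191 and 0.0437, each under 0.05.

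The narrow Lpar5 peak of the OVA list, 125071278 to 125071339, had a fold enrichment of 6.67 and a log10 p of -2.51, and was annotated to a 5′ UTR. It was the 1 peak of either list that overlapped a promoter window (250 bases before to 50 after a RefSeq start) among 13 windows of these receptors and S1pr5, with none given for S1pr1. The share of all promoter windows that a peak overlaps is not given here. The window is set on a RefSeq start at 125071335. In the deposited annotation the peak began at the start of an Lpar5 transcript, and it lay within the gene, 3434 bases from its 5′ end. Most known m6A sites lie in GAC or AAC, and neither was found on the gene's strand within the 62 bases. The same stretch of 32851 promoter windows held GAC or AAC in 74.4%. The first bases of the peak are shown because they hold its 1 AC, in capitals, from RefSeq build GRCm38.p6, chr6:125071278-125071292, plus strand.
Lpar5 peak, first 15 bases: gttcttACttcctgc

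S1pr5, the S1P receptor of natural killer cells, had 1 peak in each list, assigned to the neighbouring Keap1. At 21243328 to 21244161 on chromosome 9 it had a fold enrichment of 21.6 in OVA, and 16.6 in PBS. Its log10 p went the other way, at -9.97 and -51.0. All 23 related receptors, S1pr5 included, had a peak in both lists. Cnr1, the brain cannabinoid receptor, had its highest peak at 106 in OVA and 11.8 in PBS, but other pairs went the other way, with 2.76 and 5.59 and with 7.14 and 10.9. P2ry12, the ADP receptor of platelets and microglia, had 93.4 and 8.64, at a log10 p of -31.5 and -12.8. Its OVA peak also overlapped a further PBS peak of 2.02. P2ry10b, from a family of receptors for lysophosphatidylserine, had 28.1 and 64.2. Its log10 p went the other way, at -312 in OVA and -127 in PBS.

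Genes around the receptors mostly had peaks in both lists as well. Of 141 genes in 9 lists, 114 did, 5 had one in OVA alone, 3 in PBS alone and 19 in neither. The 114 were 80.9%, where 51.0% of all protein-coding genes had peaks in both lists. Among all genes with a peak in either list, 10.3% had one in OVA alone and 6.96% in PBS alone. Over their 216 pairs the median ratio was 1.10, with 8 at least 2-fold higher in OVA and 4 at least 2-fold lower, or 3.70% and 1.85%, against 7.77% and 4.93% of all pairs. The lower pairs include that of Gna15, which was also counted among the receptor pairs. Those that make and break down S1P had peaks in both lists for 20 of 24, and Sptlc3 in OVA alone with 2.98, at a false discovery rate of 0.0631. Smpd3, a sphingomyelinase, had 34.9 in OVA and 29.1 in PBS, and the ceramide synthase Cers4 17.4 and 20.4. Sgpl1, the lyase that ends S1P, had an OVA peak of 20 with no PBS partner, at a log10 p of -6.12. Its strongest pair had 4.44 in OVA and 4.34 in PBS, at -782 and -281. Of the carriers of S1P, 6 of 7 had peaks in both lists. The exporter Spns2 had 13.3 and 11.9, and the lipid transporter Abca1 24.0 and 23.5. Apom, the S1P carrier of plasma, had an OVA peak of 13.9 without a partner. That peak was a weak call of 91 bases with a log10 p of -3.85, assigned to Gm20522. Apom was in both lists through a weaker pair of 2.28 and 2.25, with false discovery rates of 0.0550 and 0.0871.

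The genes that make and break down LPA had a peak in both lists for 11 of 26, or 42.3%, beside 51.0% of all protein-coding genes. Autotaxin (Enpp2) was among the 10 in neither. In OVA alone were Pla2g4a with 1.99, Plppr2 with 2.28 and Plppr3 with 2.82, at a log10 p of -4.87, -3.29 and -3.16. In PBS alone were Pla2g6 with 2.40 and Agk with 12.8, at -19.8 and -3.54. The highest fold enrichments were those of Plppr4, Plpp2 and Agpat3. Plppr4 had an OVA peak of 23.1 without a partner, at a log10 p of -6.88. Its pair had 7.19 in OVA and 12.8 in PBS, at -11.7 and -3.54. The lipid phosphatase Plpp2 had 17.4 in OVA and 20.3 in PBS, at -457 and -330. The acyltransferase Agpat3 had 14 and 7.73, at -58.6 and -69.9.

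Downstream of the receptors, all 9 G protein alpha subunits had peaks in both lists. Gna13, through which S1pr2 signals, had 14.4 in OVA and 19.2 in PBS, and Gna12 13.4 and 14.6. Of 16 genes of receptor trafficking and desensitisation, 14 were in both lists and Rgs4 was in OVA alone with 3.01. Grk2, the kinase that switches off S1pr1, had 23.1 and 36.2, while its log10 p went the other way, at -755 in OVA and -267 in PBS. Rgs1, a brake on G protein signals in lymphocytes, had 25.5 and 14.1, and Rgs3 26.7 and 17.4.

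Hippo and serum response effectors had 10 of 11 in both lists, and Wwtr1 in PBS alone with 1.54. The kinase Lats2 had 26.6 in OVA and 18.8 in PBS, its target Yap1 25.4 and 22.6, and Amotl2, which binds Yap1, 19.3 and 12.6. A weaker Yap1 pair had 2.71 in OVA and 5.43 in PBS. Of 6 transcription factors known to act on S1pr1 or S1pr2, 5 had peaks in both lists and Stat3 in neither. Klf2, which switches on S1pr1 in T cells and endothelium, had 29.5 and 21.9, Ets1 38.8 and 38.3, and Gata3, the regulator of type 2 helper T cells, 15.6 and 18.1. A weaker Gata3 pair had 5.26 in OVA and 2.26 in PBS.

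**Figure D3:**
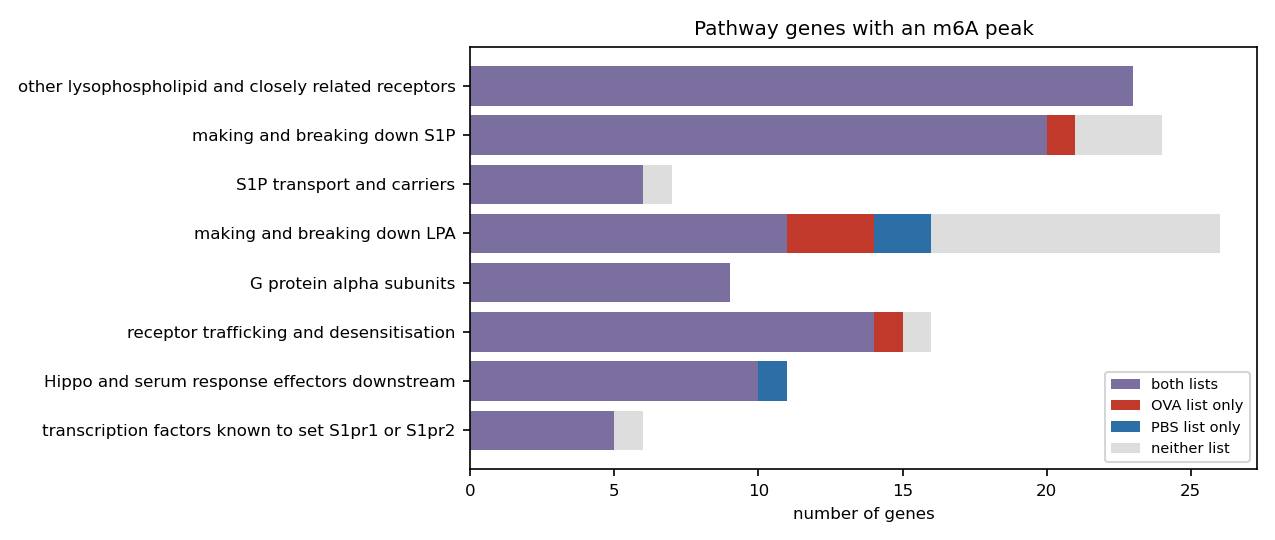
Number of genes (horizontal axis, bars from 0) of each of 8 pathway lists with an m6A peak in both lists, in 1 list alone or in neither. All 23 related receptors and all 9 G protein alpha subunits have peaks in both lists, and the genes of LPA have 11 of 26.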

How the data were processed

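MeRIP-seq of lung was made in 3 OVA and 3 PBS mice, with 1 IP and 1 input library each, 12 in all. Read cleaning (FASTP), alignment to an Ensembl mouse genome (HISAT2), peak calling (exomePeak) and peak annotation (ChIPseeker) were done by the authors. How the mice were combined was not given in the sources used here. For each peak the deposited lists hold a fold enrichment (ratio of IP to input), a log10 p and a log10 false discovery rate, the last 2 being handled here as a score.

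Peaks were matched between lists when their exonic blocks shared at least 1 bp, taking the partner with the largest overlap. A ratio of at least 2 or at most 0.5 counted as 2-fold. A percentile is the percent of peaks or pairs with a lower value. The overlap code was tested on simulated data (Python 3.11.15, numpy 2.4.6, pandas 2.3.3, matplotlib 3.10.9). All peaks called on a receptor lay within its GRCm38.p6 RefSeq position. The members and gene lists were chosen with earlier results of these data known. Named were all 10 receptors, S1pr5, the 3 genes of highest fold enrichment per list and genes with a peak in 1 list (at most 4 per list and direction). Alternatives changed the gene assignment, thresholds, overlap and reference peaks. The values of 1 pathway list and of some single genes, which remain in the totals, are not reported here.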

Additional observations from a re-analysis of the deposited data

How the results depend on the processing

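Across 46 alternatives, of which 40 were planned and the rest chosen after seeing the data, 35 left a count within 1.5 times or a percentile as it was, and 11 did not. Taking the assigned gene only gave 13 receptor peaks in OVA and 12 in PBS, and keeping protein-coding transcripts only gave 15 and 13. When partners had to share both start and end, 19 receptor peaks in each list had none, beside 89.7% and 89.3% of all peaks. The median percentile was 71.6 and 69.1 among peaks of protein-coding transcripts and 70.3 and 72.9 among peaks of the same region. In PBS it was 72.8 for peaks called on a receptor only. Restricted to pairs called on a receptor, 3 pairs were at least 2-fold lower in OVA. No paired analysis was possible because each group is 1 pooled list. Leaving out a replicate could not be run for the same reason, and the read depth that sets how precise a fold enrichment is was not analysed here.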

Other observations

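Among the 12 pathway pairs past 2-fold, Ptafr, the receptor for platelet-activating factor, had a fold enrichment of 35.1 in OVA and 11.8 in PBS and a log10 p of -1360 and -122. Mfsd2a, a lysophospholipid transporter, had 8.38 and 3.75 with a log10 p of -79.9 and -11.6. Both genes were chosen after their values were seen, and their OVA peaks reached further along the genome than the PBS peaks they overlapped.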
